A study of Homo sapiens with 4 samples.

Results

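The windows described here are the 500 bp genomic windows that lie beside the largest gap of each of 17 human autosomes (chromosomes 1 to 12 and 16 to 20) in a table of windows from 5hmC sequencing. Their members were chosen by the positions of the windows in that table. On each chromosome the largest distance between consecutive listed windows was taken as the centromere gap, and every listed window within 1 Mb of either edge was a member. This gave 7639 members in 34 flanks, out of 956365 listed windows in all. The DNA came from FaDu, an established epithelial line of hypopharyngeal squamous cell carcinoma. The study made 4 libraries, 1 per condition. Cells carried scrambled control or TET1-si (knockdown of TET1, the dioxygenase that converts 5-methylcytosine to 5-hydroxymethylcytosine) and were kept under normoxia or hypoxia. Hypoxia was 1% O2, for 18 h in the scrambled control and for 19 h in the TET1 knockdown. The sample titles name the assay hMeDIP-seq, the labels describe an antibody against 5-methylcytidine, and the methods of the study describe chemical labelling of 5hmC, so that the mark behind the windows is not settled here. The table's value columns have names that match none of the sample labels, so that no read counts were used and no condition was compared. A listed window is one that the authors kept in the table. The name of the table carries a minimum of 20, but what this minimum applies to is not given in the sources used here, so that an unlisted window may still have had reads.

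A centromere is the chromosome region on which the kinetochore assembles. Human centromeres consist of alpha satellite, a tandem array of AT-rich units, and many units carry the CENP-B box, the binding site of centromere protein B. The arrays themselves are blocks of undetermined bases (N) in this genome assembly. Beside them lie the ends of the arrays, other satellites such as the human satellites built from the pentamer ATTCC, and segmental duplications (large copies shared between chromosomes). Satellite DNA is known to be heavily methylated in most normal somatic tissues. Reads from repeated sequence are hard to place, and the authors kept only reads with 1 best alignment to hg19 and up to 3 mismatches.

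The name centromere gap was kept for 16 of the 17 chromosomes, by the position of the undetermined block. On these the gap held the longest undetermined block of the chromosome and was 3 to 21.05 Mb long (median 3.09 Mb), with 13 gaps under 3.5 Mb. The longest were those of chromosomes 1 (21.05 Mb), 9 (19.55 Mb) and 16 (11.10 Mb), which some alternatives below leave out. An undetermined block does not tell centromere from other undetermined sequence. The long-arm flanks of these chromosomes may therefore lie away from the centromere. On chromosome 9 the long-arm edge lay 986821 bp from the undetermined block. The long-arm flanks of chromosomes 1, 4 and 16 and the short-arm flank of 9 held no window with the alpha satellite period, defined below. Of the 32 gap edges, 20 lay within 1000 bp of the undetermined block and 8 lay over 10000 bp from it. Chromosome 18 goes against the name. Its largest gap, 4.09 Mb from 63437501 to 67532000, lies on the long arm, holds no undetermined base and was bordered by listed windows in CDH7 (a cadherin) and CD226 (a receptor of natural killer and T cells). By the definition of a gap none of its 8189 windows was listed. It covers CDH19, DSEL, TMX3, CCDC102B and DOK6. The centromere block of chromosome 18, from 15410899 to 18510898, was shorter at 3.10 Mb. The 153 members on chromosome 18 are therefore not centromere flanks, and 7486 members remain on the other 16 chromosomes.

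The sequences that recur among the members are shown from the forward strand of GRCh37 (coordinates shared with hg19 for these chromosomes), 5′ to 3′. The edge window of chromosome 7 on the short arm had the highest self-similarity at the alpha satellite period of all edge windows. Its adjacent satellite units, at chr7:58053001-58053171 and chr7:58053172-58053342, share 142 bases (83.0%), which are in capitals.
Unit 1, chromosome 7: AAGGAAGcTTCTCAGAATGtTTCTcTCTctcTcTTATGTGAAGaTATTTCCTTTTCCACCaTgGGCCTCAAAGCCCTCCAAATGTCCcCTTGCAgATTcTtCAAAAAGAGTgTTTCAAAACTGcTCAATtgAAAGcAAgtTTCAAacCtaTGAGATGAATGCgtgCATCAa
Unit 2, chromosome 7: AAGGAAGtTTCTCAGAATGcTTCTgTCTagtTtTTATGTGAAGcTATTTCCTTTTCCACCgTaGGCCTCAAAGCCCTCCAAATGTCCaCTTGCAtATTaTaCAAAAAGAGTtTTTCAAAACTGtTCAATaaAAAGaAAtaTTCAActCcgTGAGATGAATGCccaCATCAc

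The edge windows of the short arms of chromosomes 12 and 20 hold the core of the CENP-B box (TTCG, any 4 bases, A, any 2 bases, CGGG, searched on both strands), in capitals at chr12:34856325-34856459 and chr20:26319001-26319087.
Chromosome 12 edge: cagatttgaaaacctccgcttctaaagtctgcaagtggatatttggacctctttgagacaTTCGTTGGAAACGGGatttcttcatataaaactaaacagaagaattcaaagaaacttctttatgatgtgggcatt
Chromosome 20 edge: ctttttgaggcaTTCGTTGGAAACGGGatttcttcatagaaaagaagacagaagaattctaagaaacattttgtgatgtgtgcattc

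The member with the most copies of ATTCC or its reverse complement, 68 in 500 bp, begins on the short-arm side of chromosome 4 at 539 kb from the gap. The first 150 bases, chr4:49120501-49120650, show 24 copies in capitals.
Pentamer array, chromosome 4: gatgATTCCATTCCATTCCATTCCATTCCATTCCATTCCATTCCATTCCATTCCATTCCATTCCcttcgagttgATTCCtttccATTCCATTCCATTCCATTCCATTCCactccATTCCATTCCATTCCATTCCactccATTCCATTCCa

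The most CpG-rich member has 66 CpG sites and lies in MIR663AHG, a long non-coding RNA gene, 130 kb from the gap on the short arm of chromosome 20. Its densest 150 bases, chr20:26189092-26189241, hold 27 CpG sites, in capitals.
CpG-rich member, chromosome 20: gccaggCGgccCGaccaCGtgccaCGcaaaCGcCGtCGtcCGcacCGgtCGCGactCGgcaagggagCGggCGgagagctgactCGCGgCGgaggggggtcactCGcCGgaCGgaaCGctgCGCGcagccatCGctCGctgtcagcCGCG

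Of the 63437 flank windows without undetermined bases, 7625 were listed, or 12.02% (95% Wilson interval 11.8 to 12.3%). Over the 17 chromosomes 16.8% of such windows were listed, so that the flanks as a whole were below the background. The number of CpG sites and the GC content of a window go with listing, and for each window a predicted share was taken from all windows of the 17 chromosomes in the same class of both. The predicted share of the flanks was 14.8%, and the ratio of listed to predicted share was 0.811 (0.794 to 0.828). Without chromosome 18 the share was 12.6% and the ratio 0.833. When the prediction was made within each chromosome the ratio was 0.801. From 1 to 2 Mb the ratio was 0.981, from 2 to 5 Mb it was 0.879, and over 5 Mb away it was 1.01. These intervals treat windows as independent, which neighbours are not, and cover counting error only. No test was made, because the gap edges were themselves set by listed windows.

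The flanks differed from each other far more than the pooled share shows. The numbers of members ran from 1 to 710 per flank, with a median of 220.5. The ratio was wholly below 1 by its interval in 23 flanks, wholly above 1 in 7, and held 1 in 4. The 5 flanks with the most members held 2829 of them, 37.0%. On 11 of the 16 chromosomes the long-arm side had more members, 4460 in all against 3026 on the short-arm side. In ratio the long-arm flanks were at 0.972 and the short-arm flanks at 0.687, with the long arm higher on 10 chromosomes. The order was not the same everywhere. Chromosomes 1, 2 and 4, among others, had the higher ratio on the short arm.

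**Figure D1:**
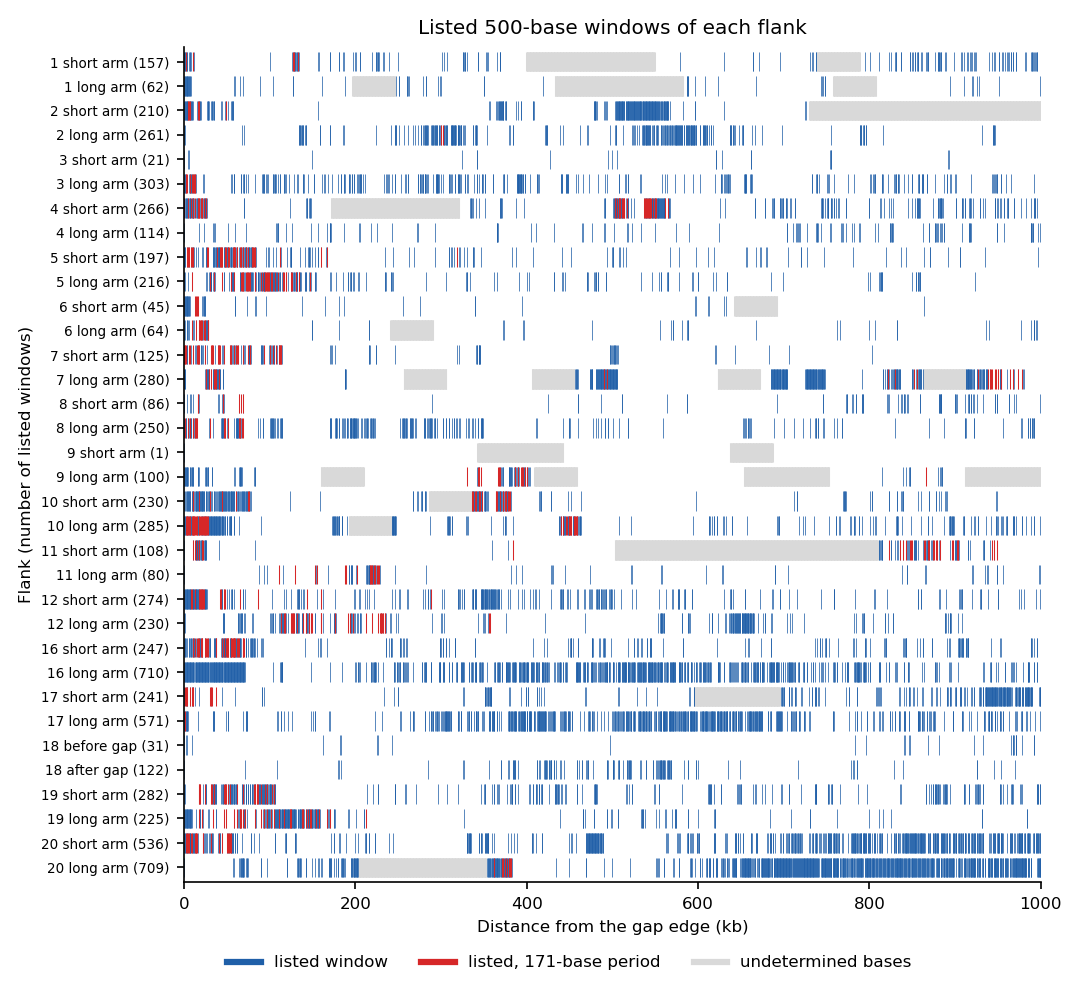
Every listed window of the 34 flanks by its distance from the gap edge in kb, 1 row per flank with its number of members; blue lines are listed windows, red lines are listed windows with the alpha satellite period and grey areas are undetermined bases. Red lines lie mostly near the left edge, and the rows of 16 long arm, 17 long arm and both flanks of 20 are the most densely filled.

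Listing was densest on the long arm of chromosome 20, where 708 of 1699 windows without undetermined bases were listed (41.7%, ratio 1.83). The long arm of chromosome 16 followed with 709 of 1999 (35.5%, ratio 1.67), then that of chromosome 17 with 28.6% (ratio 1.25) and the short arm of chromosome 20 with 26.8% (ratio 1.37). These 4 flanks had a joint ratio of 1.52, and all other flanks one of 0.659. Prediction within each chromosome brought the joint ratio of the 4 flanks to 1.23 and the long arm of chromosome 17 to 0.958, below 1. The long arm of chromosome 3 and the long arm of chromosome 7 also stood above their prediction, at ratios of 1.60 and 1.38. The arms of chromosome 3 differed widely. Its short arm had 21 listed windows of 2000 (1.05%, ratio 0.1197), against 303 of 2000 (15.2%) on the long arm, although 74.6% and 81.8% of their windows were unique in sequence.

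At the other end, the short-arm flank of chromosome 9 had a single member, the edge window itself, in 1698 windows without undetermined bases. None of its windows was unique at all 5 sampled 50-mers, and 80.0% had no unique 50-mer. The next listed window on that side lay 1174 kb from the edge. The long arm of chromosome 1 (62 members, ratio 0.283) and the long arm of chromosome 9 (100 members, ratio 0.476) also lay in sequence that was almost nowhere unique, with 1.87% and 2.26% of windows unique. Low listing was not limited to such sequence. On the short arm of chromosome 8, where 74.6% of windows were unique, the ratio was 0.305.

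**Figure D2:**
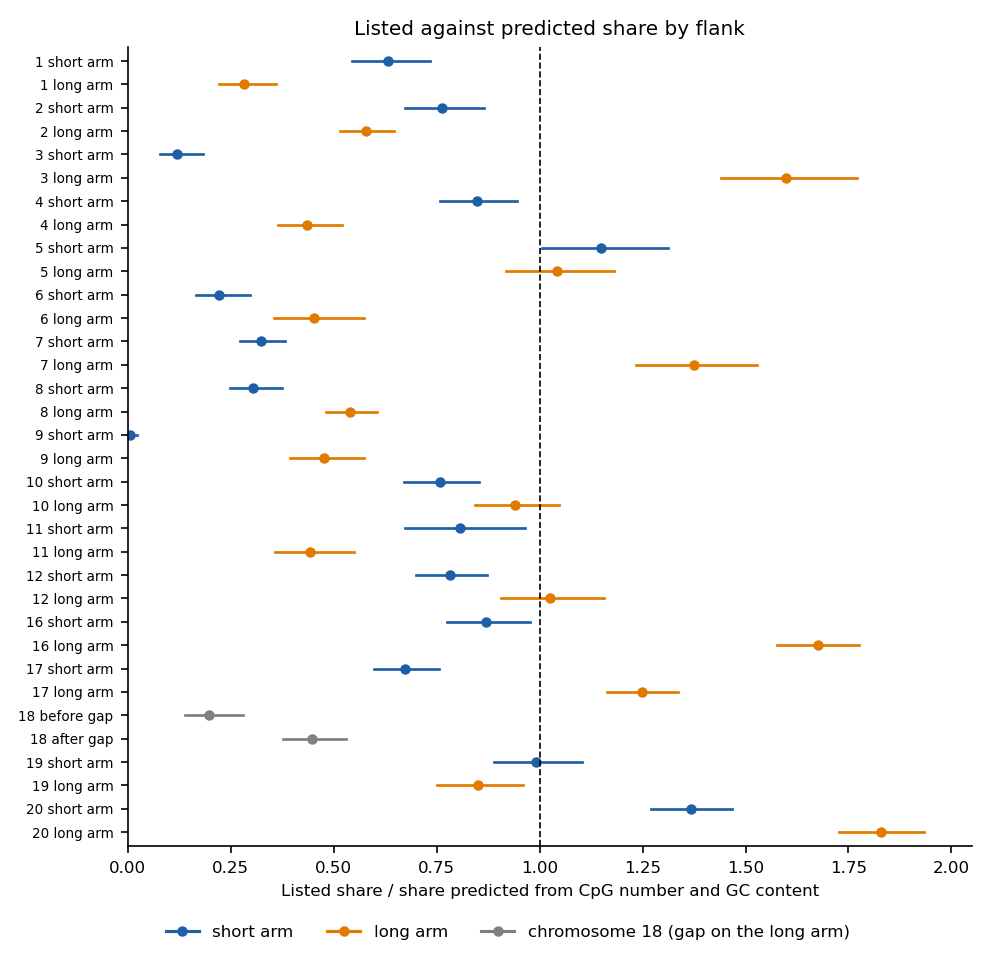
Ratio of the listed share to the share predicted from CpG number and GC content for each flank; points are flanks, bars are 95% Wilson intervals divided by the predicted share, and the dashed line is a ratio of 1. Flanks run from 0.00410 (9 short arm) to 1.83 (20 long arm), with the long arms of 3, 7, 16, 17 and 20 and the short arms of 5 and 20 wholly to the right of 1.

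Pooled over flanks, distance from the gap set off a dense rim from a sparse zone behind it. On the 16 chromosomes 24.0% of windows in the first 100 kb were listed, against 14.9% predicted (ratio 1.61). The share was 9.83% from 100 to 200 kb (ratio 0.798) and lowest from 200 to 300 kb, at 7.44% (ratio 0.525). It was 13.04% from 900 to 1000 kb (ratio 0.866). The fall was steeper on the short arms, from a ratio of 1.89 in the first 100 kb to 0.378 and 0.253 in the next bins. On the long arms the same bins had ratios of 1.36, 1.16 and 0.778. Each gap edge is a listed window by construction. Measured instead from the assembly's own undetermined blocks, chromosome 18 included, the first 100 kb had 22.2% of windows listed and a ratio of 1.53. The median flank had 18.3% listed in the first 100 kb and 5.50% from 200 to 300 kb, where 6 of 31 flanks with sequence had none. Not every flank had a dense rim. The first 100 kb held 112 of 197 members on the short arm of chromosome 5 and 110 of 247 on that of chromosome 16. On the long arms of chromosomes 20, 17 and 2 it held 20 of 709, 22 of 571 and 4 of 261.

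**Figure D3:**
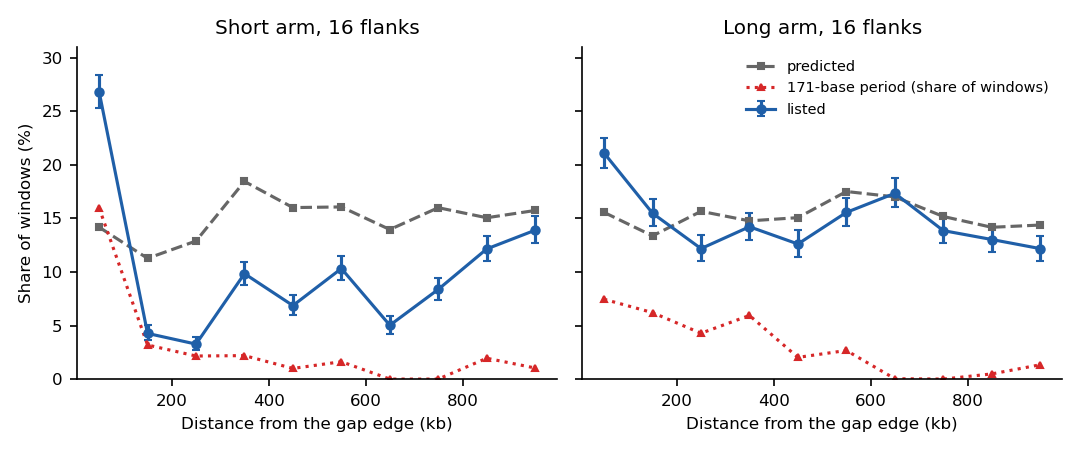
Share of windows listed (blue, 95% Wilson intervals), share predicted (grey) and share of all windows with the alpha satellite period (red), in percent, against distance from the gap edge in bins of 100 kb, for the 16 short-arm and the 16 long-arm flanks. Listing reaches 26.8% in the first bin of the short arms and 21.1% in that of the long arms, and lies below the prediction in every later bin of the short arms.

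Windows with the alpha satellite period were listed above their prediction, most of all in the rim. A window was called alpha-period if at least 70% of its bases equalled the bases 169 to 173 positions away. There were 1825 such windows in the flanks, at a median distance of 144.5 kb, with 749 of them (41.0%) in the first 100 kb. The call rests on the lag alone, so that arrays of ATTCC can also pass it, and how many did was not counted. Of the 1825, 596 were listed, 32.7% (30.5 to 34.8%). The prediction from their composition was 11.9%, a ratio of 2.75. In flank windows without the period 11.4% were listed, a ratio of 0.765. Alpha-period windows elsewhere on the 17 chromosomes, 1038 in all, had 21.6% listed, a ratio of 1.22. The 596 alpha-period members made up 7.82% of the members. They lay at a median of 68.2 kb from the gap, against 486 kb for all members, and 350 of them (58.7%) lay in the first 100 kb. Of the alpha-period windows of the first 100 kb, 46.7% were listed (ratio 3.45). Windows of the same zone without the period had 20.9% listed (ratio 1.39), and those with no self-match of 70% at any lag from 2 to 1000 bases had 15.5% (ratio 1.04). Further out, from 100 to 1000 kb, the alpha-period share was 22.9% (ratio 2.13).

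The alpha-period members were poor in CpG. They had a mean of 5.10 ± 3.68 CpG sites (SD, n = 596 windows) and a GC content of 37.5%, against 8.32 ± 7.19 and 44.8% in members without the period (n = 7029). Of alpha-period windows with 1 CpG or fewer, 58 of 259 were listed (22.4%), where 3.52% was predicted. Flanks differed here too. On the long arm of chromosome 3, 9 of 10 alpha-period windows were listed and on the short arm 0 of 68. On the short arm of chromosome 4, 44 of 63 were listed, and on the long arm of chromosome 7, 30 of 201. Windows with 10 or more ATTCC copies numbered 187 on the former arm and 90 on the latter. How many of them were among the alpha-period windows was not counted, so that this contrast may not be between alpha satellites. In all, 28 flanks had alpha-period windows and 27 had at least 1 listed.

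The CENP-B box core was found in 232 members, with 285 copies and at most 2 in a member, spread over 18 flanks. Of flank windows with a core and no undetermined bases, 229 of 684 were listed (33.5%, ratio 1.72). The core holds CpG sites itself. Among alpha-period windows, those with the core had 37.1% listed (46 of 124, ratio 2.15) and those without it 32.3% (550 of 1701, ratio 2.81), so that the difference in share was within the intervals, 29.1 to 45.9% and 30.1 to 34.6%. Outside the flanks windows with the core had 32.5% listed, a ratio of 0.972, in sequence of much higher CpG content.

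Each window was also scanned for its best self-match at lags of 2 to 1000 bases. The scan set no period, but it used the same windows and sequence. A match of at least 70% was found in 1451 members, 19.0%, and in 5.21% of unlisted flank windows. The lag was near a multiple of the alpha satellite unit in 960 members, with 185 members at 1 unit, 208 at 2, 215 at 4, 181 at 5 and the fewest at 3. The single commonest lag was that of 1 unit, in 156 members. Of all flank windows of this class 27.9% were listed. A second class, with lags in multiples of 5 up to 100, was rare and listed far more often, 168 of 224 windows (75%, 68.9 to 80.2%, ratio 3.21). It lay mainly on the short arms of chromosomes 10 (61 members) and 4 (45 members), and on the long arms of chromosomes 10 (29 members) and 20 (22 members).

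**Figure D4:**
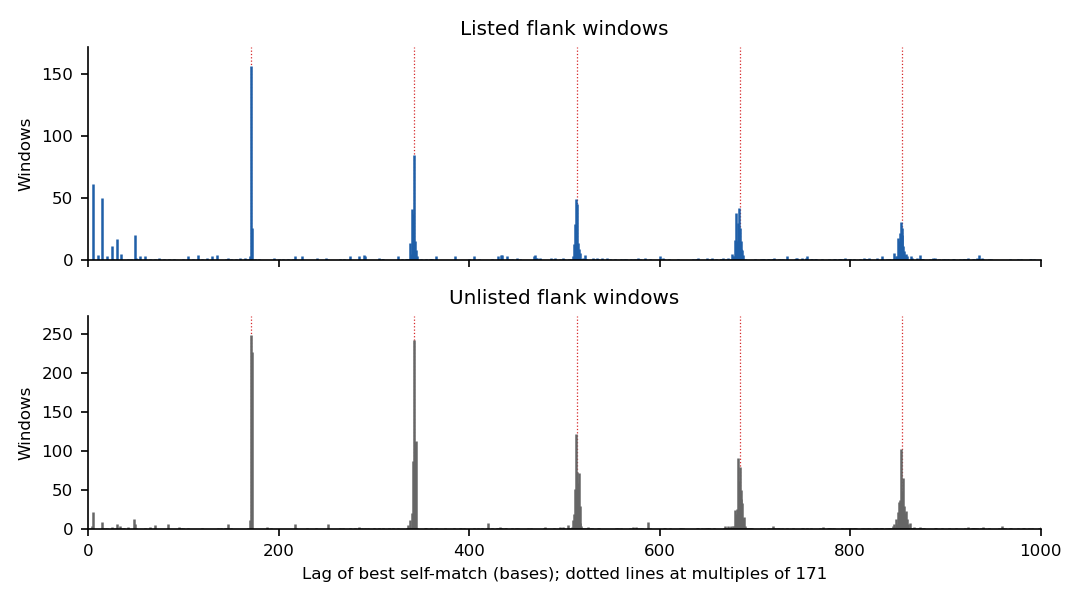
Number of listed (top) and unlisted (bottom) flank windows by the lag of their best self-match in bases, for windows with at least 70% identity; dotted lines mark multiples of the alpha satellite unit. Both panels have peaks at these multiples, and the peaks at 5 and 15 bases are taller in listed windows (61 and 50) than in unlisted ones (22 and 9).

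Copies of ATTCC and its reverse complement, counted on the forward strand with overlaps allowed, marked the same kind of sequence as the chromosome 4 array printed above. Of 1034 flank windows with 10 or more copies, 770 were listed, 74.5% (71.7 to 77.0%, ratio 2.24). In flank windows with fewer copies 10.99% were listed (ratio 0.757). Windows elsewhere with 10 or more copies, 693 in all, had 45.7% listed (ratio 1.61). These windows were rich in CpG, with a mean of 13.8 sites in the flanks, and the ratio takes that into account. The short arm of chromosome 10 held 184 of the 770 (184 of 289 windows listed), followed by the long arm of chromosome 16 (142 of 147 listed), the long arm of chromosome 10 (137 of 162) and the short arm of chromosome 4 (128 of 187). Listing was lower on the short arms of chromosomes 7 (12 of 23) and 2 (7 of 51). On the long arm of chromosome 16 they formed a block. In its first 75 kb 136 of 149 windows were listed (91.3%), and 141 of the 149 had 10 or more copies.

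Members also stood in runs. The 7639 members formed 2926 runs of consecutive listed windows, of which 96 had 10 or more windows and held 21.1% of the members. Outside the flanks the share in such runs was 16.85%. The longest run, 53 windows at chr12:34830001-34856500, ended at the gap on the short arm of chromosome 12 and held 10 alpha-period windows and 10 with a CENP-B box core. The second, 51 windows at chr16:46431001-46456500, and the third, 49 windows at chr10:42373001-42397500, consisted entirely of windows with 10 or more ATTCC copies. Of the 49 windows of the third, 11 were also called alpha-period. The fifth, 43 windows at chr20:30139001-30160500, lay in HM13, which encodes signal peptide peptidase, an intramembrane protease.

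Uniqueness of sequence moved with listing. For each window 5 evenly placed 50-mers, the read length of the study, were searched in the whole assembly on both strands. Only exact matches counted, while reads were placed with up to 3 mismatches, and undetermined arrays could not be searched. A window with 5 unique 50-mers may therefore still have near copies, and the shares below do not show that its reads were placed uniquely. All 5 were unique in 69.4% of members and in 55.8% of unlisted flank windows. In windows sampled elsewhere the figures were 81.98% for listed and 81.7% for unlisted windows. In the flanks the listed share was 1.15% with none of the 5 unique, 3.78%, 6.29% and 10.3% with 1, 2 and 3, and 15.8% and 14.5% with 4 and 5. Among windows with all 5 unique the ratio, with the prediction still from windows of every kind, was 1.03 (1.00 to 1.05), so that the shortfall of the flanks as a whole was not seen there. The alpha-period excess was larger in them, with 37.0% of 965 windows listed (ratio 3.66), and windows without the period had a ratio of 0.976. Of the 249 alpha-period windows with no unique 50-mer 8 were listed. In the first 100 kb the ratio was 2.20 over windows with all 5 unique, where 40.2% of windows were so on the 16 chromosomes. With 10 or more ATTCC copies and all 5 unique, 76.5% of flank windows were listed, close to the 74.5% of all flank windows with 10 or more copies.

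Members had a mean of 8.07 ± 7.03 CpG sites (SD, n = 7625 windows) and a GC content of 44.2%. Unlisted flank windows had a mean of 4.02 sites, and listed windows elsewhere one of 8.52 with a GC content of 47.4%. Listing rose with CpG number up to 39 sites and was lower above, in the flanks as in the rest. At 6 to 10 sites 22.3% of flank windows were listed against 30.4% elsewhere, and at 11 to 19 sites 34.5% against 46.2%. Windows without CpG went the other way, with 2.30% (1.91 to 2.76%) against 1.73%. In flank windows with all 5 sequences unique the shares at 6 to 10 and 11 to 19 sites were 29.6% and 45.2%.

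**Figure D5:**
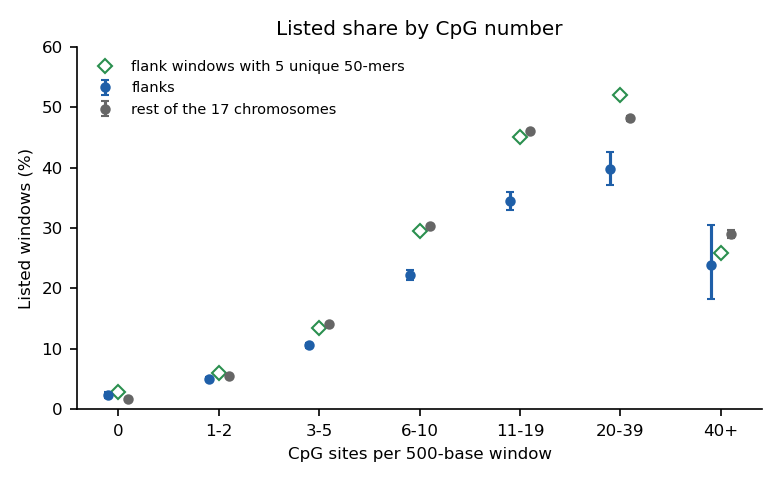
Share of windows listed, in percent, by the number of CpG sites per 500 bp window, for the flanks (blue) and the rest of the 17 chromosomes (grey) with 95% Wilson intervals, and for flank windows with 5 unique 50-mers (green, no interval drawn). From 3 to 39 sites the flanks lie below the rest, while the green points lie near or above the grey ones.

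Genes covered the members less than listed windows elsewhere. Of the members 39.3% had their midpoint in a gene of GENCODE release 44 lifted to GRCh37, 26.9% in a protein-coding gene and 5.59% in an exon. For listed windows elsewhere these shares were 70.6%, 58.9% and 9.53%, and for unlisted flank windows 35.8%, 16.1% and 4.41%. The flanks overlap 128 protein-coding genes, of which 88 held a member (68.8%, 60.3 to 76.1%). Of the other protein-coding genes of the 17 chromosomes 90.6% held a listed window, with a median of 55 windows per gene against 40 in the flanks. At 61 of 116 protein-coding start sites in the flanks (52.6%, 43.6 to 61.4%) a window in the 3000 bp upstream was listed, against 76.2% in the rest of the 17 chromosomes.

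The gene with the most members was KSR1, a scaffold protein of the MAP kinase cascade, at 25783474 to 25953464 of chromosome 17, with 211 of 340 windows listed (62.1%, 32.2% predicted). NINL, a ninein-like protein of the centrosome, at 25432230 to 25566167 of chromosome 20, had 144 of 268 listed (53.7%). Both lie over 500 kb from the gap. HM13 had 103 of 127 listed (81.1%, 32.1% predicted). In MYLK3, the cardiac myosin light chain kinase on chromosome 16, 83 of 177 windows were listed. LSP1P5 on chromosome 2, a pseudogene of LSP1 annotated as a long non-coding RNA, had 98 of 146 listed although 32.9% of its windows were unique. The potassium channel gene KCNJ12 on the short arm of chromosome 17 had 65 of 87 (74.7%), and KCNIP3, which encodes a calcium-binding partner of potassium channels, had 80 of 178 (44.9%), close to its prediction of 42.8%.

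NOTCH2, the Notch receptor gene, lies 843 kb from the gap of chromosome 1 with 66 of 315 windows listed (20.95%, 12.01% predicted), though only 25.7% of its windows were unique. PROS1, which encodes the anticoagulant protein S, lies 86.9 kb from the gap of chromosome 3, with 45 of 214 listed (21.03%, 12.99% predicted). FRYL on chromosome 4 had 48 of 245 (19.6%) and the zinc-finger gene ZNF675 on chromosome 19 37 of 323 (11.5%, below its prediction of 16.9%). KHDRBS2, a gene of an RNA-binding protein on chromosome 6, had 24 of 996 windows listed (2.41%, 7.28% predicted) in sequence that was 89.2% unique. For every gene only windows inside the flanks were counted, and NOTCH2, FRYL and KHDRBS2 reach beyond them, so that theirs are not whole-gene shares. The remaining genes that led a flank were the long non-coding RNA genes ENSG00000291065 (41 members), LINC01618 (24) and ENSG00000225096 (22) and 15 others with 1 to 19 members each.

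Gene families counted whole differed from each other. Over all flank genes 294 of 824 held a member (35.7%). Of 22 ZNF genes (zinc-finger genes, their pseudogenes and antisense genes) 16 held a member, and 166 of their 1675 windows were listed (9.91%, against 12.02% of all flank windows). Of 54 olfactory receptor genes and pseudogenes on chromosomes 2 and 11, 3 held a member (OR10AG1, OR5AS1 and OR4P4), with 5 of 154 windows listed (3.25%). The long-arm flank of chromosome 11, where most of them lie, had 4% of its windows listed and the short-arm flank 7.80%. In the ANKRD family 5 of 6 genes held a member, with 20 of 307 windows listed (6.5%), also below the share of all flank windows. Of the 6 FRG genes FRG1BP alone held members, 10 of its 44 windows. None was found in POTEA (142 windows), in the CNTNAP3 and FAM27 copies, in the DUX copies or in the SLC pseudogenes, and TP53TG3HP held 1. No FOXD4L, SPATA31, NBPF, GOLGA or ANKRD30 gene was annotated in the flanks. The window next to the start window of NINL (62 CpG sites) and windows of KCNJ12 (65), ZNF514 (58) and ITFG1-AS1 (57) were among the 10 most CpG-rich members.

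The 32 edge windows of the 16 chromosomes were mostly short of a clear alpha period. Undetermined bases were present in 8 of them, and the edge of chromosome 1 at 121485501 to 121486000 had no determined base at all and was the sole such listed window of the 17 chromosomes. Of the 24 edge windows without undetermined bases, 9 had a self-match of at least 70%, in 6 at a lag near a multiple of the satellite unit. By the call, 2 were alpha-period windows, those of the short arms of chromosomes 4 (identity 71.6%) and 7 (78.8%). The best self-match of the chromosome 4 window was at a lag of 55 bases (identity 0.748), not near a multiple of the satellite unit. Whether that window is alpha satellite was not tested. All 5 sequences were unique in 12 of the 24. A CENP-B box core lay in 3 of the 24, and a gene overlapped 1 of the 32. The outer limit of 1 Mb cut through listed windows in most flanks. Leaving out the short arm of chromosome 9, the outermost members lay at 726 to 999.5 kb, and the nearest listed windows outside lay at 1000 to 1840 kb in all flanks.

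On chromosome 18 the flanks of the undetermined block, not members by the rule, had 546 of 4000 windows listed (13.7%, 12.6 to 14.8%, ratio 0.915), with 22 of 35 alpha-period windows listed. The members beside its long-arm gap had 153 of 4000 (3.83%, ratio 0.356), no alpha-period window and no CENP-B box core.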

How the data were processed

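Genomic DNA of 4 FaDu libraries was sequenced as 50 bp single-end reads on a HiSeq 2000. According to the methods, the authors aligned reads to hg19 with Bowtie 0.12.7, kept reads with 1 best alignment and at most 3 mismatches, removed duplicates and used MEDIPS among other packages. The counting step is not described there. The deposited table, named for MEDIPS, 500 bp windows and a minimum of 20, gives window positions and 4 columns of values whose names match no sample label. These 4 columns were not used, so that depth per library and conditions were not analysed here. The only other unit used was the window start and end, as deposited. All listed windows lay on the 500 bp grid within GRCh37 chromosome lengths.

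For every window of 17 chromosomes the CpG number (classes up to 40) and GC content (steps of 25 bases) were computed from GRCh37, with undetermined bases left out, and the listed share of each joint class gave the prediction. Self-similarity was scanned at lags of 2 to 1000 bases. Uniqueness used 5 exact 50-mers per window. Genes were those of GENCODE release 44 lifted to GRCh37. The text names, for each flank, the gene with the most members (the first 15), all edge windows as a group, fixed gene families, the 10 most CpG-rich members and members with a CENP-B box. Intervals are 95% Wilson intervals. No p-values were computed. Alternatives were other flank widths, block edges, identities and predictions. Scripts were tested on simulated data. Python 3.11.15, NumPy 2.4.6, pandas 2.3.3 and numba 0.67.0 were used. The members and lists were chosen with earlier results of these data known.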

Additional observations from a re-analysis of the deposited data

How the results depend on the processing

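Of 67 alternative values of 8 results, 28 stayed within the 95% interval of the reported value (for the number of members, within 1.5 times it), 38 moved outside it and 1 turned direction. The alternatives that leave out chromosome 18, the 4 densest flanks (long arms of 16 and 17, both of 20) or windows that are not unique, and all those of the last pair of results below, were chosen after seeing the data. The ratio of listed to predicted share in the flanks was 0.847 with flanks of 500 kb, 0.9003 with flanks of 2 Mb, 0.833 without chromosome 18, 0.659 without the densest flanks, 0.780 with a prediction from CpG number alone and 0.714 with none. It turned to 1.03 over windows with 5 unique sequences. The number of members was 3931 with flanks of 500 kb and 17864 with 2 Mb. Their mean CpG number was 7.61 without the densest flanks and 7.85 over unique windows. The share with the alpha satellite period was 13.4% at 500 kb, 3.56% at 2 Mb, 11.1% without the densest flanks, 6.75% over unique windows, 17.9% at an identity of 0.6 and 2.71% at 0.8. The share with unique sequences was 65.8% at 500 kb, 73.5% at 2 Mb, 71.5% without chromosomes 1, 9 and 16 and 68.2% without the densest flanks. The share in a gene was 21.7% at 500 kb, 52.6% at 2 Mb, 40.9% from the edges of the undetermined blocks, 37.6% without chromosomes 1, 9 and 16, 28.6% without the densest flanks, 41.3% over unique windows and 26.9% for protein-coding genes. The ratio within 100 kb of the gap, 1.54 over all 17 chromosomes, was 1.61 without chromosomes 1, 9 and 16 and 1.61 without chromosome 18, 2.20 over unique windows, and 1.27, 1.35 and 1.43 with a prediction from CpG number alone, none, and within each chromosome. The ratio in alpha-period windows was 3.03 without chromosomes 1, 9 and 16, 3.66 over unique windows, 1.959 and 1.94 with a prediction from CpG number alone and none, and 3.80 at an identity of 0.8. Their causes were not tested. Counting error is small beside these shifts, and the depth of the libraries is unknown here. No paired analysis was possible because the columns carry no replicate numbers and each condition has 1 library.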

Other observations

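The listing of windows outside the flanks was uneven on a large scale. The longest run of consecutive listed windows on the 17 chromosomes held 2173 windows, 1.09 Mb of chromosome 11 from 69774501 to 70861000, with a mean of 9.54 CpG sites. It compares with 53 windows for the longest run in a flank.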
